A study of Triticum aestivum with 27 samples.

Results

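The genes described here are the 3 homoeologues of sucrose synthase 2 and the 3 homoeologues of the large subunit of ADP-glucose pyrophosphorylase in bread wheat, followed through a sprouting treatment of ripening spikes. Sucrose synthase 2 is called Sus2, with TraesCS2A01G168200 as Sus2-2A, TraesCS2B01G194200 as Sus2-2B and TraesCS2D01G175600 as Sus2-2D. The large subunit is called AGPL1, with TraesCS1A01G419600 as AGPL1-1A, TraesCS1B01G449700 as AGPL1-1B and TraesCS1D01G427400 as AGPL1-1D. The genes were taken by these identifiers, and the deposited table gives none of them a symbol. They are 6 of the 153699 genes of the table and 6 of the 68658 genes tested. The chromosome is part of each identifier, and positions on the chromosomes were not analysed here.

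Sucrose synthase splits sucrose that reaches a sink tissue into fructose and UDP-glucose, from which a cell can build starch or cell wall. ADP-glucose pyrophosphorylase makes ADP-glucose, the glucose donor of starch synthases, and its step is known as the main control point of starch synthesis in cereal endosperm. The enzyme is built of large subunits, to which AGPL1 belongs and which are known for regulation, and of small subunits that carry most of the catalytic activity. In a filling wheat grain both enzymes serve starch deposition, whereas in a wetted ripe grain the reserves are broken down again. Bread wheat carries an A, a B and a D genome, so that most genes are present as a copy on each.

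The RNA came from whole spikes of 3 varieties. Baipimai has white grains and is resistant to sprouting, Shengsimai has red grains and is highly resistant, and Zhoumai18 has white grains and is highly susceptible. The spikes had been cut when the grain was at wax ripeness, then soaked in water and held in warm, humid air. Sampling took place at 0, 48 and 96 h, and each of the 9 groups held 3 replicates. The 0 h libraries come from spikes that had already been soaked. The study's methods count each spike as a biological replicate. Zhoumai18 was the only susceptible variety of the 3, so that susceptibility and its other differences from the resistant varieties cannot be told apart. In the library names the variety number of Baipimai is that of another white-grained variety of the study's list, and these libraries are called Baipimai here as their labels do. Each library was made from whole-spike RNA, in which fewer cells that express a gene and less RNA of it per cell cannot be told apart.

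Library totals ran from 45590141 to 55765523 counts, and the TMM factors, which allow for a few abundant transcripts that take up a large part of a library, from 0.714 to 1.16. Levels are given as deposited FPKM, which are scaled for gene length and for library size but not by TMM. Differences are log2 fold changes of TMM-scaled counts with their standard error (SE) and a p from the quasi-likelihood test of edgeR, adjusted over all tested genes after Benjamini and Hochberg. A gene was called at an adjusted p under 0.05. No minimum fold change was set, and at this depth a large share of all genes passed the threshold, so each count of called members stands beside that share. Reads of the near-identical A, B and D copies can be split between them by the counting, and single copies are uncertain to that extent.

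The families lay at quite different levels. Over all libraries Sus2-2A ran from 0.128 to 2.79 FPKM (19 to 365 counts), Sus2-2B from 0.119 to 16.5 FPKM (17 to 2086 counts) and Sus2-2D from 0.149 to 1.63 FPKM (20 to 214 counts). AGPL1-1A ran from 16.7 to 61.8 FPKM, AGPL1-1B from 4.73 to 69.3 and AGPL1-1D from 4.39 to 57.2, on at least 382 counts in every library. All 6 genes passed the filter of 1 FPKM in at least 3 libraries, and the AGPL1 copies reached 1 FPKM in all 27. Sus2-2D passed it through 5 libraries alone, all of them from Shengsimai at 48 or 96 h. A gene kept through the group where it is high had to differ there, so the differences of Sus2-2D that involve these groups are given as a description without a p, although the counts of members past the threshold include them. In the fit of all genes without the filter, each of these differences was past the threshold as well. Sus2-2A reached 1 FPKM in 7 libraries and Sus2-2B in 12. Those of Sus2-2A were the 96 h libraries of Shengsimai and Zhoumai18 and replicate 1 of Zhoumai18 at 0 h. Either 96 h group alone would have kept Sus2-2A, but its differences from Baipimai at 96 h do involve the groups that kept it. Without the filter these differences were past the threshold as well.

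Sus2-2B was the copy that moved most, and it did so in Shengsimai. At 0 h the Shengsimai libraries had 0.119, 0.221 and 0.157 FPKM, at 48 h 3.40, 3.64 and 4.09, and at 96 h 16.0, 16.5 and 15.8. The 3 times did not overlap, and the 96 h libraries lay above every other library of the experiment. The log2 fold change from 0 to 48 h was 3.93 (SE 0.19, adjusted p = 9.1e-17), that from 48 to 96 h 2.10 (SE 0.13, adjusted p = 5.6e-13) and that from 0 to 96 h 6.03 (SE 0.18, adjusted p = 6.2e-21), a 65.4-fold rise on the TMM scale. The size of this fold depends on the scaling, and the FPKM means, from 0.166 to 16.1, lie further apart. Without TMM the median change of all tested genes over this span was 0.59, against 0.08 with it.

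In the other varieties Sus2-2B also started low. Zhoumai18 had 0.266, 0.158 and 0.220 FPKM at 0 h, 0.818, 0.743 and 0.578 at 48 h, and 2.16 in each library at 96 h, without overlap between times. It rose by a log2 fold change of 1.44 to 48 h (SE 0.21, adjusted p = 5.5e-07) and of 1.60 from there to 96 h (SE 0.15, adjusted p = 3.4e-10). Baipimai had 0.164, 0.179 and 0.133 FPKM at 0 h, 1.44, 1.29 and 1.31 at 48 h, and 0.720, 0.434 and 0.416 at 96 h. Here the copy rose to 48 h (log2 fold change 2.60, SE 0.20, adjusted p = 5.0e-12) and then fell (-1.18, SE 0.17, adjusted p = 9.8e-07), and at 96 h it was still above its level at 0 h (1.42, SE 0.23, adjusted p = 3.4e-06).

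Sus2-2A was high at 96 h in Shengsimai and in Zhoumai18 alike. Shengsimai had 0.310, 0.260 and 0.128 FPKM at 0 h, 0.453, 0.598 and 0.412 at 48 h, and 2.26, 2.21 and 2.79 at 96 h. Its step from 0 to 48 h was not past the threshold (log2 fold change 0.53, SE 0.25, adjusted p = 0.064), although the libraries of both times did not overlap in FPKM, and it passed in several other fits given with the counts over time, while the rise from 48 to 96 h was past it (2.29, SE 0.21, adjusted p = 2.0e-09). Zhoumai18 went down before it went up, with 1.06, 0.799 and 0.921 FPKM at 0 h, 0.286, 0.232 and 0.205 at 48 h, and 2.00, 2.18 and 2.34 at 96 h. The fall had a log2 fold change of -2.19 (SE 0.24, adjusted p = 4.6e-09) and the rise after it 3.16 (SE 0.23, adjusted p = 1.5e-12). In Baipimai all 9 libraries stayed under 1 FPKM, at 0.300, 0.419 and 0.323 at 0 h, 0.707, 0.593 and 0.830 at 48 h, and 0.422, 0.250 and 0.235 at 96 h. The 48 h libraries lay above all others of the variety, with a rise of 0.59 (SE 0.23, adjusted p = 0.025) and a fall of -1.04 (SE 0.24, adjusted p = 0.00056).

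Sus2-2D, kept in the test by its level in Shengsimai, stayed low in all varieties. Shengsimai had 0.342, 0.293 and 0.226 FPKM at 0 h, 1.01, 0.989 and 1.04 at 48 h, and 1.58, 1.63 and 1.63 at 96 h. Over the whole treatment this was a log2 fold change of 1.93 (SE 0.19). Baipimai had 0.265, 0.276 and 0.251 FPKM at 0 h, 0.710, 0.809 and 0.974 at 48 h, and 0.300, 0.187 and 0.225 at 96 h, a rise of 1.20 (SE 0.20, adjusted p = 4.5e-06) followed by a fall of -1.60 (SE 0.20, adjusted p = 1.4e-07). Zhoumai18 had 0.396, 0.305 and 0.301 FPKM at 0 h and 0.332, 0.451 and 0.426 at 48 h, which overlapped (0.02, SE 0.20, adjusted p = 0.95). It then fell to 0.185, 0.210 and 0.149 FPKM at 96 h (-1.14, SE 0.22, adjusted p = 3.7e-05), the group with the lowest mean of this copy.

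**Figure D1:**
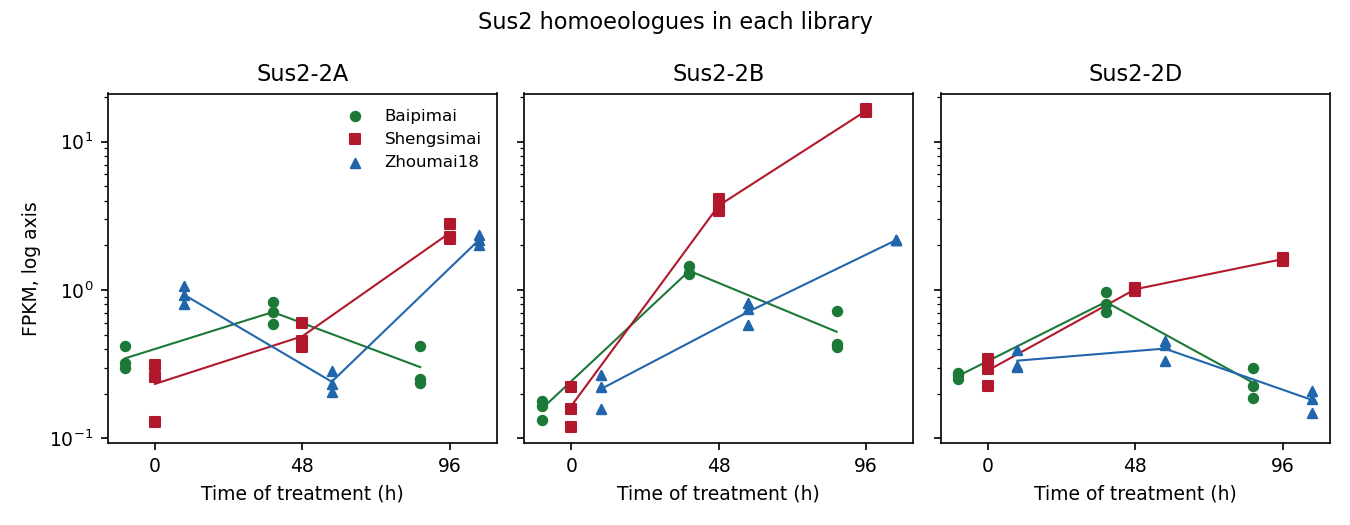
FPKM of the 3 Sus2 copies (log axis) in each of the 27 libraries against time of treatment (h); points are libraries, set side by side by variety at each time, and lines join the means of 3. In Shengsimai Sus2-2B climbs from a mean of 0.166 FPKM at 0 h to 16.1 at 96 h, whereas Baipimai peaks at 48 h in all 3 panels.

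AGPL1-1B and AGPL1-1D were lowest at 0 h in every variety and rose to 48 h, while over the same step AGPL1-1A rose in Zhoumai18 only. AGPL1-1B in Zhoumai18 had 12.1, 15.3 and 13.3 FPKM at 0 h, 59.1, 69.3 and 69.0 at 48 h, and 37.8, 39.4 and 39.4 at 96 h. The 48 h libraries were the highest of this copy in the experiment, after a log2 fold change of 2.02 (SE 0.09, adjusted p = 6.4e-17) and before a fall of -0.75 (SE 0.09, adjusted p = 2.3e-08). Baipimai had 17.6, 17.4 and 17.4 FPKM at 0 h, 33.2, 28.5 and 32.2 at 48 h, and 40.5, 37.5 and 29.1 at 96 h. It rose at both steps, by 0.41 (SE 0.09, adjusted p = 0.00024) and by 0.37 (SE 0.09, adjusted p = 0.0011), although its 48 and 96 h libraries overlapped in FPKM. With library totals alone the later rise was 0.19 and not past the threshold (adjusted p = 0.092, edgeR). Nor was it in limma on log2(FPKM + 1) (0.17, adjusted p = 0.14) or on log2(FPKM + 0.1) (0.18, adjusted p = 0.18). Shengsimai held the lowest values of AGPL1-1B, with 4.73, 5.73 and 4.78 FPKM at 0 h, 16.9, 16.7 and 15.0 at 48 h, and 13.2, 14.1 and 15.1 at 96 h. Its rise to 48 h was 1.15 (SE 0.10, adjusted p = 2.8e-11), and the later times overlapped (-0.22, SE 0.09, adjusted p = 0.10).

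AGPL1-1D was lowest at 0 h in all varieties and had its largest log2 rise to 48 h in Shengsimai. The difference of that rise from the rise in Zhoumai18 was not past the threshold (0.33, SE 0.14, adjusted p = 0.061 in edgeR's test). It passed in several other fits given with the changes over time. Shengsimai had 4.39, 5.18 and 4.68 FPKM at 0 h, 39.7, 37.6 and 36.2 at 48 h, and 21.9, 23.6 and 26.4 at 96 h, without overlap. The rise to 48 h had a log2 fold change of 2.47 (SE 0.11, adjusted p = 1.2e-17) and the fall after it -0.68 (SE 0.10, adjusted p = 4.4e-06). Zhoumai18 had 7.73, 11.5 and 11.4 FPKM at 0 h, 49.6, 56.3 and 57.2 at 48 h, and 50.2, 50.1 and 49.8 at 96 h. It rose by 2.14 (SE 0.10, adjusted p = 9.8e-17), and its later times overlapped (-0.11, SE 0.10, adjusted p = 0.30). Baipimai went up at each step, from 7.47, 8.55 and 7.94 FPKM at 0 h to 25.8, 23.0 and 26.4 at 48 h and 35.9, 39.9 and 31.8 at 96 h. These steps were 1.22 (SE 0.10, adjusted p = 2.1e-11) and 0.70 (SE 0.10, adjusted p = 7.8e-07).

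Within its family, AGPL1-1A was the copy whose direction from 0 to 48 h differed between the varieties. In Zhoumai18 it went from 20.4, 24.2 and 25.8 FPKM at 0 h to 53.9, 61.8 and 57.5 at 48 h and back to 35.5, 36.7 and 34.7 at 96 h, a rise of 1.03 (SE 0.08, adjusted p = 1.8e-12) and a fall of -0.69 (SE 0.08, adjusted p = 5.2e-09). Shengsimai declined throughout, from 25.1, 26.0 and 27.4 FPKM at 0 h to 22.8, 23.6 and 20.4 at 48 h and 16.7, 17.3 and 19.7 at 96 h. This was a log2 fold change of -0.75 to 48 h (SE 0.08, adjusted p = 1.2e-09) and of -1.08 to 96 h (SE 0.08, adjusted p = 8.2e-13). Baipimai had 27.1, 31.1 and 27.4 FPKM at 0 h, 26.4, 24.3 and 25.9 at 48 h, and 40.6, 45.4 and 39.7 at 96 h. It fell by 0.58 (SE 0.08, adjusted p = 1.2e-07) before it rose by 0.89 (SE 0.08, adjusted p = 1.3e-10).

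The size of these falls depended on the scaling. With library totals alone, the change of AGPL1-1A from 0 to 48 h was -0.17 in Baipimai (adjusted p = 0.062, edgeR) and -0.23 in Shengsimai (adjusted p = 0.012, edgeR). The median change of all tested genes moved with the scaling as well, from 0.15 to 0.57 in Baipimai and from 0.02 to 0.54 in Shengsimai. Relative to that median AGPL1-1A had -0.73 with TMM and -0.74 without it in Baipimai, -0.77 either way in Shengsimai, and 0.94 either way in Zhoumai18.

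**Figure D2:**
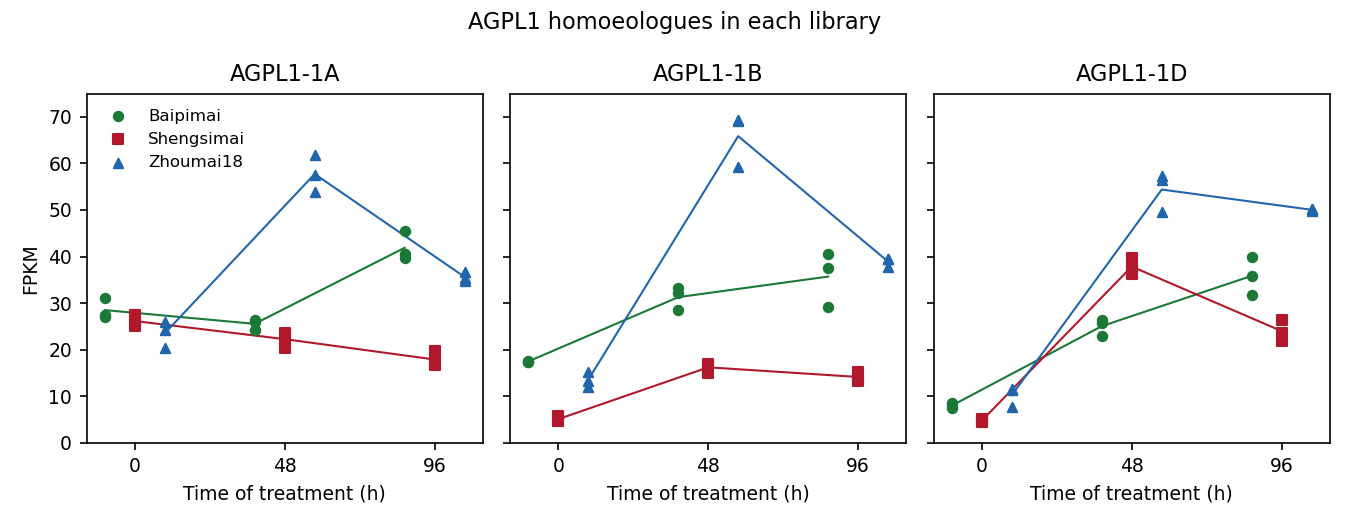
FPKM of the 3 AGPL1 copies in each of the 27 libraries against time of treatment (h); points are libraries, set side by side by variety at each time, and lines join the means of 3. Zhoumai18 at 48 h has the highest mean of every copy, 57.7 FPKM for AGPL1-1A, 65.8 for AGPL1-1B and 54.4 for AGPL1-1D.

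Since FPKM is per length, the copies of a family can be set against each other within a library. The share of Sus2-2B in the summed FPKM of the 3 Sus2 copies was 24.9% ± 8.26 (SD, n = 3) in Shengsimai at 0 h, then 71.1% ± 2.34 at 48 h and finally 80.0% ± 1.56 at 96 h. In Baipimai it was 20.6% ± 1.82 at 0 h, 46.8% ± 4.29 at 48 h and 49.1% ± 1.39 at 96 h, and in Zhoumai18 14.4% ± 1.65, 52.3% ± 4.60 and 47.8% ± 1.68. At 0 h Sus2-2A led in Zhoumai18 with 62.9% ± 1.25, and at 96 h it still held 48.1% ± 2.19 there, against 12.0% ± 1.54 in Shengsimai. Sus2-2D went from 22.7% ± 1.68 at 0 h to 4.03% ± 0.734 at 96 h in Zhoumai18. The B copy thus took a larger share at 48 and 96 h than at 0 h in every library of all 3 varieties.

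In AGPL1 the A copy led at 0 h and lost ground to 48 h in every variety. At 0 h its share was 72.7% ± 2.03 (SD, n = 3) in Shengsimai, against 52.8% ± 1.45 in Baipimai and 49.8% ± 2.04 in Zhoumai18, and 29.2% ± 0.993, 31.2% ± 0.708 and 32.5% ± 1.02 at 48 h. At 96 h the A copy held 31.9% ± 0.396 in Shengsimai, 28.6% ± 0.542 in Zhoumai18 and 37.0% ± 2.39 in Baipimai, where it was again the largest. The D copy took its place in Shengsimai, with 13.2% ± 0.743 at 0 h, then 49.6% ± 1.19 at 48 h and lastly 42.8% ± 0.485 at 96 h. In Zhoumai18 the D share went from 21.5% ± 1.93 through 30.6% ± 0.546 to 40.2% ± 0.452, and in Baipimai from 14.8% ± 0.390 through 30.6% ± 0.539 to 31.6% ± 0.886. The B share of Shengsimai was the lowest of the varieties at each time, at 14.1% ± 1.30, 21.2% ± 0.256 and 25.3% ± 0.505. These shares do not depend on how libraries were scaled. They are a description without a test, since the counting may split reads between copies, and how well each variety's sequence matches the reference copies was not tested.

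**Figure D3:**
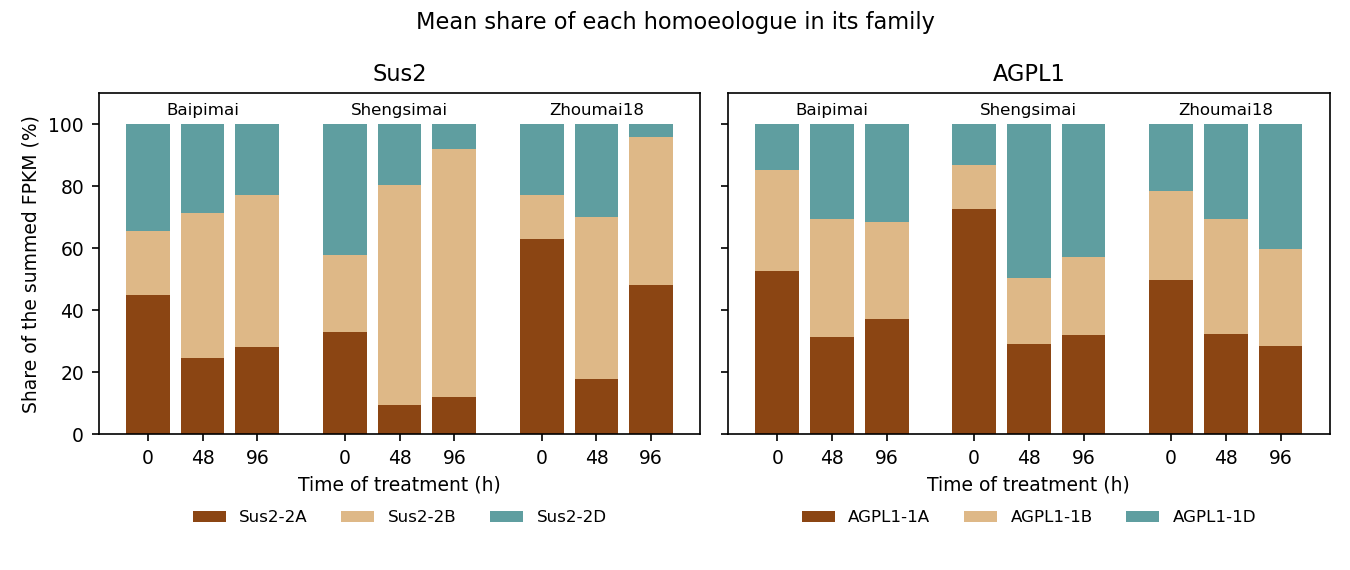
Mean share (%, n = 3) of each copy in the summed FPKM of its family, Sus2 on the left and AGPL1 on the right, by variety and time of treatment (h); each bar adds up to all 3 copies. Sus2-2B grows to 80.0% in Shengsimai at 96 h, and AGPL1-1A shrinks from 72.7% to 29.2% between 0 and 48 h there.

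The study compared each resistant variety with Zhoumai18, and the resistant varieties with each other, at each time. At 0 h fewer members passed the threshold in each comparison than at the later times, and a smaller share of all tested genes passed too. The Sus2 copies had 17 to 136 counts per library at this time, which limits small differences. Baipimai had 3 of 6 members past the threshold against Zhoumai18, 2 higher and 1 lower, where 49.2% of all tested genes passed (25.7% higher, 23.5% lower). Sus2-2A was lower in Baipimai (log2 fold change -1.28, SE 0.23, adjusted p = 3.2e-05), and AGPL1-1A (0.41, SE 0.08, adjusted p = 6.4e-05) and AGPL1-1B (0.50, SE 0.09, adjusted p = 5.8e-05) were higher. AGPL1-1D missed the threshold (-0.23, SE 0.10, adjusted p = 0.071), and it passed without replicate 1 of Zhoumai18, the lowest of its group (-0.38, adjusted p = 0.00064, edgeR). With all libraries it passed in DESeq2 (-0.25, adjusted p = 0.038) and in limma at pseudocounts of 1 (-0.30, adjusted p = 0.025) and 0.1 (-0.33, adjusted p = 0.032). It also passed with upper-quartile scaling (-0.27, adjusted p = 0.038, edgeR) and without TMM (-0.37, adjusted p = 0.0079, edgeR). It did not pass without the filter, with the replicate number as a block or in a fit of the compared groups alone.

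Shengsimai had 4 of 6 members past the threshold against Zhoumai18 at 0 h, 1 higher and 3 lower, where 58.7% of all tested genes passed (29.4% higher, 29.4% lower). Sus2-2A (-1.60, SE 0.24, adjusted p = 1.9e-06), AGPL1-1B (-1.04, SE 0.10, adjusted p = 5.6e-10) and AGPL1-1D (-0.73, SE 0.11, adjusted p = 1.3e-06) were lower in Shengsimai. AGPL1-1A was higher on the TMM scale (0.53, SE 0.08, adjusted p = 1.1e-06), while its FPKM overlapped between the varieties and library totals alone gave 0.14 (adjusted p = 0.13, edgeR). Between Baipimai and Shengsimai 2 of 6 passed, both higher in Baipimai, where 47.7% of all tested genes did (24.1% higher, 23.5% lower). They were AGPL1-1B (1.53, SE 0.10, adjusted p = 3.3e-13) and AGPL1-1D (0.50, SE 0.11, adjusted p = 0.00037), and no Sus2 copy passed, with 0 at an unadjusted p under 0.05, in DESeq2 or in limma.

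At 48 h the families moved apart. All 3 Sus2 copies were higher and all 3 AGPL1 copies were lower in Baipimai than in Zhoumai18, and the same held for Shengsimai. In Baipimai that is 6 of 6 members where 53.6% of all tested genes passed (28.6% higher, 25.0% lower), and in Shengsimai 6 of 6 where 62.4% passed (29.1% higher, 33.3% lower). The FPKM of no member overlapped between a resistant variety and Zhoumai18 at this time. Both comparisons share the Zhoumai18 libraries.

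Among the Sus2 copies at 48 h, Sus2-2A had log2 fold changes of 1.51 in Baipimai (SE 0.25, adjusted p = 6.9e-06) and 1.12 in Shengsimai (SE 0.25, adjusted p = 0.00036) against Zhoumai18. Sus2-2B had 0.88 (SE 0.16, adjusted p = 3.3e-05) and 2.49 (SE 0.15, adjusted p = 2.6e-14), and Sus2-2D 0.99 (SE 0.19, adjusted p = 5.7e-05) and, as a description, 1.43 (SE 0.19). AGPL1-1A was 2.31-fold lower in Baipimai (-1.21, SE 0.08, adjusted p = 1.0e-13) and 2.38-fold lower in Shengsimai (-1.25, SE 0.08, adjusted p = 3.8e-14). AGPL1-1B was at -1.11 in Baipimai (SE 0.09, adjusted p = 2.3e-11) and, with the widest gap of the family, at -1.90 in Shengsimai (SE 0.09, adjusted p = 2.5e-16). AGPL1-1D was at -1.15 in Baipimai (SE 0.10, adjusted p = 4.6e-11) and at -0.40 in Shengsimai (SE 0.10, adjusted p = 0.00066).

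Between the resistant varieties at 48 h, 4 of 6 members passed, 1 higher and 3 lower in Baipimai, where 61.7% of all tested genes did (33.4% higher, 28.4% lower). Sus2-2B was lower in Baipimai by a log2 fold change of -1.61 (SE 0.14, adjusted p = 7.8e-11), AGPL1-1D was lower (-0.75, SE 0.10, adjusted p = 1.5e-07) and AGPL1-1B was higher (0.79, SE 0.09, adjusted p = 2.2e-08). Sus2-2D was at -0.43 (SE 0.17), and it was no longer past the threshold without replicate 1 or 2 of Baipimai or without any 1 of the Shengsimai replicates. AGPL1-1A and Sus2-2A were at 0.04 (adjusted p = 0.64) and 0.39 (adjusted p = 0.13) in edgeR's test. Sus2-2A passed in limma at pseudocounts of 1 (0.20, adjusted p = 0.033) and 0.1 (0.47, adjusted p = 0.047). Without TMM both Sus2-2A (0.54, adjusted p = 0.036, edgeR) and AGPL1-1A (0.19, adjusted p = 0.039, edgeR) passed. Neither passed in any other fit.

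At 96 h the order of the varieties differed between the families. Shengsimai had the highest Sus2-2B and Sus2-2D and the lowest AGPL1 copies, Zhoumai18 and Shengsimai overlapped in Sus2-2A, and Baipimai had little Sus2 with high AGPL1. Against Zhoumai18, Shengsimai had 5 of 6 members past the threshold, 2 higher and 3 lower, where 81.6% of all tested genes passed (39.5% higher, 42.2% lower). Sus2-2B was 7.96-fold higher (log2 fold change 2.99, SE 0.14, adjusted p = 2.1e-17) and Sus2-2D, as a description, 9.34-fold higher (3.22, SE 0.20). Sus2-2A did not pass (0.25, 95% interval -0.12 to 0.62, adjusted p = 0.23). AGPL1-1A (-0.90, SE 0.08, adjusted p = 2.6e-11), AGPL1-1B (-1.37, SE 0.09, adjusted p = 1.7e-13) and AGPL1-1D (-0.97, SE 0.10, adjusted p = 5.8e-10) were lower in Shengsimai.

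Baipimai had 5 of 6 members past the threshold against Zhoumai18 at 96 h, 2 higher and 3 lower, where 82.4% of all tested genes passed (39.6% higher, 42.7% lower). Sus2-2A (-2.69, SE 0.23, adjusted p = 1.4e-11) and Sus2-2B (-1.90, SE 0.16, adjusted p = 1.6e-11) were lower in Baipimai, the opposite of their order at 48 h. AGPL1-1A was higher (0.37, SE 0.08, adjusted p = 7.0e-05), AGPL1-1D lower (-0.35, SE 0.10, adjusted p = 0.0018) and AGPL1-1B did not pass (0.01, 95% interval -0.17 to 0.18, adjusted p = 0.94). Sus2-2D was higher in Baipimai by 0.53 (SE 0.23, adjusted p = 0.04) on 20 to 39 counts per library, with overlapping FPKM. Without replicate 1 of Baipimai this was 0.34 (adjusted p = 0.23, edgeR), without replicate 3 of Baipimai 0.54 (adjusted p = 0.063, edgeR), and without replicate 1 or 3 of Zhoumai18 0.56 (adjusted p = 0.059, edgeR) or 0.39 (adjusted p = 0.16, edgeR).

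Between Baipimai and Shengsimai at 96 h all 6 members passed, the 3 Sus2 copies lower and the 3 AGPL1 copies higher in Baipimai, where 62.7% of all tested genes did (31.8% higher, 31.0% lower). Sus2-2B differed most, by 29.8-fold (log2 fold change -4.90, SE 0.16, adjusted p = 3.2e-20), before Sus2-2A (-2.94, SE 0.23, adjusted p = 6.4e-12) and, as a description, Sus2-2D (-2.70, SE 0.20). AGPL1-1B was at 1.38 (SE 0.09, adjusted p = 4.0e-13), AGPL1-1A at 1.27 (SE 0.08, adjusted p = 4.7e-14) and AGPL1-1D at 0.62 (SE 0.10, adjusted p = 3.1e-06). No FPKM overlapped. The resistant varieties therefore lay on opposite sides of Zhoumai18 in Sus2-2B at this time.

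**Figure D4:**
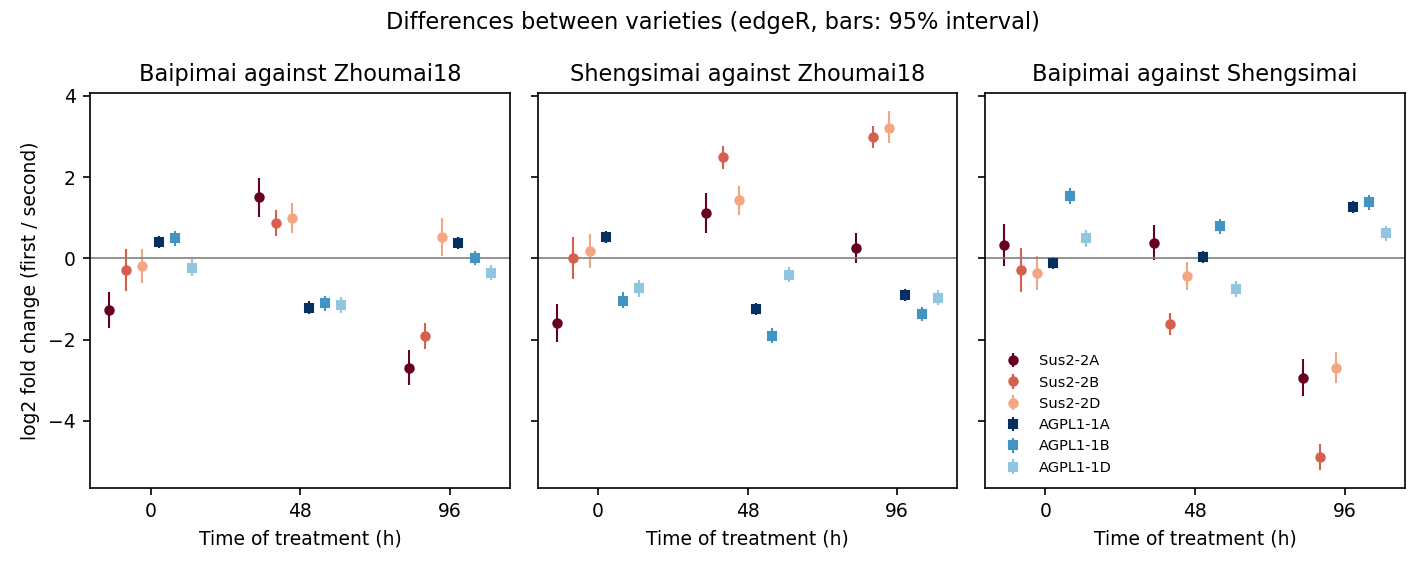
log2 fold change (first variety over second, edgeR) of the 6 genes at 0, 48 and 96 h for each pair of varieties; points are estimates from 3 libraries a group and bars their 95% intervals, with Sus2 as circles and AGPL1 as squares. At 48 h Sus2 lies above 0 and AGPL1 below it against Zhoumai18 in both resistant varieties; at 96 h Sus2-2B is at 2.99 in Shengsimai and at -1.90 in Baipimai.

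Markers of tissue also differed between the varieties, at 48 h and at 96 h. The summed FPKM of 2 globulin storage protein genes of the embryo was 1837 to 2090 in Zhoumai18 at 96 h, against 19818 to 20938 in Baipimai and 19343 to 23098 in Shengsimai, and 8608 to 9808 in Zhoumai18 at 48 h. The summed FPKM of 2 chlorophyll a-b binding protein genes was 42.9 to 44.2 in Zhoumai18 at 96 h and at most 0.651 in any other library. The summed FPKM of 3 gliadin and glutenin genes of the starchy endosperm was 29.6 to 35.4 in Baipimai at 0 h, 22.3 to 38.2 in Zhoumai18 and 0.160 to 0.420 in Shengsimai, and at most 1.50 in any library at 96 h. At 48 h, where all 6 members separated Zhoumai18 from both resistant varieties, the globulin sum was 16461 to 17315 FPKM in Baipimai and 20565 to 21679 in Shengsimai, and both globulin genes were higher in each than in Zhoumai18 by edgeR's adjusted p. The gliadin and glutenin sum at 48 h was 27.7 to 35.5 FPKM in Baipimai, 6.45 to 7.58 in Shengsimai and on average 13.0 in Zhoumai18, at most 15.3, and the chlorophyll a-b binding protein genes summed to at most 0.635 FPKM. Between Baipimai and Zhoumai18 the genes of the gliadin and glutenin sum did not go together. The glutenin gene had means of 17.1 and 32.5 FPKM at 0 h and of 13.3 and 13.0 at 48 h. The 2 gliadin genes had means of 11.1 and 4.12 FPKM in Baipimai at 0 h and of 11.8 and 6.06 at 48 h. In Zhoumai18 their group means were at most 0.112 FPKM at any time. The part of these markers in the differences of Sus2 and AGPL1 was not tested.

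Counted over time within a variety, Baipimai had all 6 members past the threshold from 0 to 48 h, 5 higher and 1 lower, where 72.2% of all tested genes passed (40.9% higher, 31.3% lower). From 48 to 96 h all 6 passed again, with the 3 Sus2 copies lower and the 3 AGPL1 copies higher, where 55.8% passed (26.3% higher, 29.6% lower). Of these, AGPL1-1B lost its call without TMM and in limma. Over both steps, from 0 to 96 h, 4 passed, all higher, where 70.8% passed (39.4% higher, 31.4% lower). Sus2-2A and Sus2-2D were then at -0.45 (adjusted p = 0.12) and -0.40 (adjusted p = 0.11) in edgeR's test, and both passed without replicate 1 of Baipimai at 96 h, at -0.76 (adjusted p = 0.018, edgeR) and -0.59 (adjusted p = 0.038, edgeR). The rise of Sus2-2A from 0 to 48 h in Baipimai rested on single libraries, with 0.52 (adjusted p = 0.084, edgeR) without replicate 1 at 0 h, 0.53 (adjusted p = 0.078, edgeR) without replicate 3 at 0 h and 0.46 (adjusted p = 0.11, edgeR) without replicate 3 at 48 h.

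In Shengsimai 5 of 6 members passed from 0 to 48 h, 4 higher and 1 lower, where 72.1% of all tested genes passed (37.6% higher, 34.5% lower). From 48 to 96 h 5 passed, the 3 Sus2 copies higher and AGPL1-1A and AGPL1-1D lower. In that step only 21.6% of all tested genes passed (13.6% higher, 8.05% lower), the smallest share of the 9 comparisons over time. From 0 to 96 h all 6 passed, 5 higher and AGPL1-1A lower, where 72.7% did (39.5% higher, 33.2% lower). Each of these counts includes Sus2-2D, which was kept in the test only by its level in Shengsimai at 48 and 96 h. Its part in them is a description. The missing call of Sus2-2A from 0 to 48 h passed without replicate 1 of Shengsimai at 0 h (0.83, adjusted p = 0.012, edgeR) and without replicate 3 at 48 h (0.62, adjusted p = 0.048, edgeR). It also passed with DESeq2 (0.54, adjusted p = 0.04), with limma at pseudocounts of 1 (0.27, adjusted p = 0.004) and 0.1 (0.85, adjusted p = 0.00056), with upper-quartile scaling (0.68, adjusted p = 0.017, edgeR) and without TMM (1.05, adjusted p = 0.00046, edgeR).

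In Zhoumai18 5 of 6 members passed from 0 to 48 h, 4 higher and Sus2-2A lower, where 72.9% of all tested genes passed (39.4% higher, 33.4% lower). From 48 to 96 h 5 passed, with Sus2-2A and Sus2-2B higher and Sus2-2D, AGPL1-1A and AGPL1-1B lower, where 74.8% passed (36.7% higher, 38.1% lower). From 0 to 96 h all 6 passed, 5 higher and Sus2-2D lower, where 82.2% did (44.4% higher, 37.8% lower). AGPL1-1D had then a log2 fold change of 2.03 (SE 0.10, adjusted p = 1.3e-16), AGPL1-1B of 1.27 (SE 0.09, adjusted p = 6.8e-13) and Sus2-2B of 3.04 (SE 0.19, adjusted p = 1.1e-14).

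Whether the varieties changed differently over time was tested as the difference between their changes. From 0 to 48 h all 6 members changed differently in Baipimai and Zhoumai18, with the 3 Sus2 copies towards higher and the 3 AGPL1 copies towards lower values in Baipimai, where 43.3% of all tested genes did (22.1% higher, 21.1% lower). The difference was 2.78 for Sus2-2A (SE 0.34, adjusted p = 1.1e-07) and -1.62 for AGPL1-1A (SE 0.11, adjusted p = 1.3e-12). Between Shengsimai and Zhoumai18 5 of 6 members changed differently over this step, 3 higher and 2 lower, where 49.7% did (24.1% higher, 25.6% lower). The 3 higher ones include Sus2-2D, which was kept in the test by its level in Shengsimai. Sus2-2A was at 2.72 (SE 0.35, adjusted p = 2.3e-07), Sus2-2B at 2.49 (SE 0.30, adjusted p = 1.0e-07) and AGPL1-1A at -1.78 (SE 0.11, adjusted p = 1.1e-13). AGPL1-1D did not pass (0.33, SE 0.14, adjusted p = 0.061), and it passed without replicate 2 of Shengsimai at 0 h (0.40, adjusted p = 0.033, edgeR) or replicate 1 of Zhoumai18 at 0 h (0.48, adjusted p = 0.001, edgeR). With all libraries it passed in DESeq2 (0.36, adjusted p = 0.027) and in limma at pseudocounts of 1 (0.44, adjusted p = 0.018) and 0.1 (0.55, adjusted p = 0.011). It also passed with upper-quartile scaling (0.42, adjusted p = 0.021, edgeR), without TMM (0.61, adjusted p = 0.0015, edgeR) and in a fit of the compared groups alone (0.48, adjusted p = 0.021, edgeR). It did not pass without the filter or with the replicate number as a block.

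From 0 to 96 h, 4 of 6 members changed differently in Baipimai and Zhoumai18, 1 higher and 3 lower, where 66.8% of all tested genes did (34.3% higher, 32.5% lower). Sus2-2B was at -1.62 (SE 0.32, adjusted p = 6.1e-05), Sus2-2A at -1.41 (SE 0.33, adjusted p = 0.0004) and AGPL1-1B at -0.49 (SE 0.13, adjusted p = 0.0016). Sus2-2D was at 0.71 (SE 0.32, adjusted p = 0.049), and 8 of the 12 fits that left out 1 library lost this call, with values of 0.53 to 0.87. Between Shengsimai and Zhoumai18 5 of 6 changed differently, 3 higher and 2 lower, where 65.2% did (35.1% higher, 30.1% lower). Sus2-2D was at 3.05 (SE 0.29), given as a description, Sus2-2B at 2.99 (SE 0.30, adjusted p = 1.0e-09), Sus2-2A at 1.85 (SE 0.31, adjusted p = 7.0e-06) and AGPL1-1A at -1.43 (SE 0.11, adjusted p = 5.9e-12). AGPL1-1B was at -0.33 (SE 0.13, adjusted p = 0.033), and 5 of 12 such fits lost it, with values of -0.42 to -0.24.

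The sums of the copies show how far the balance of the families shifted. The Sus2 sum was 0.770 ± 0.0906 FPKM (SD, n = 3) in Baipimai at 0 h, then 2.89 ± 0.213 at 48 h and lastly 1.06 ± 0.328 at 96 h. In Shengsimai it was 0.686 ± 0.151, 5.21 ± 0.340 and 20.2 ± 0.230, and in Zhoumai18 1.47 ± 0.230, 1.36 ± 0.128 and 4.52 ± 0.155. The AGPL1 sum was 54.0 ± 2.68 FPKM, 81.9 ± 5.29 and 113 ± 11.5 in Baipimai, 36.0 ± 1.52, 76.3 ± 4.16 and 56.0 ± 4.79 in Shengsimai, and 47.2 ± 6.09, 178 ± 13.4 and 125 ± 1.49 in Zhoumai18. The AGPL1 sum over the Sus2 sum of the same library ran from 2.60 to 3.02 in Shengsimai at 96 h and from 113 to 152 in Zhoumai18 at 48 h, the lowest and the highest mean of the 9 groups. In Baipimai the ratio was 65.3 to 74.6 at 0 h, then 27.1 to 29.9 at 48 h, and lastly 81.1 to 141 at 96 h. A ratio within a library does not depend on how libraries were scaled.

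**Figure D5:**
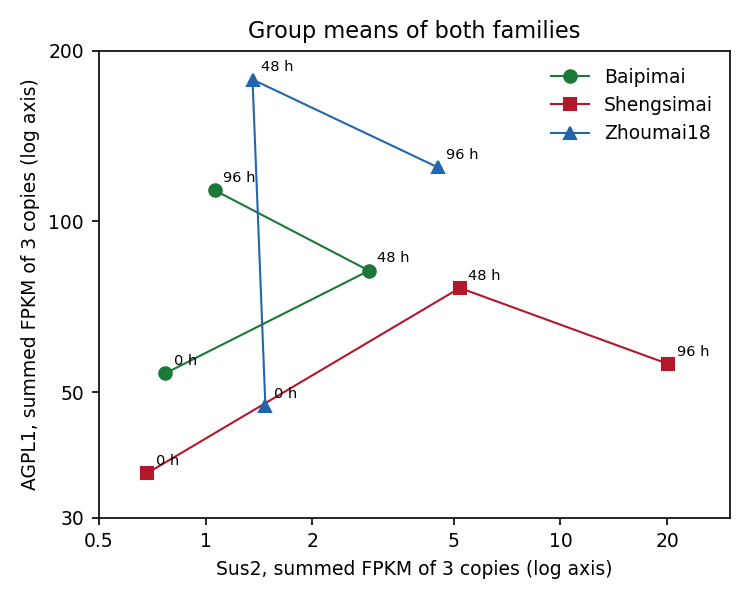
Mean summed FPKM of the 3 AGPL1 copies against that of the 3 Sus2 copies (both log axes) in each of the 9 groups; lines follow each variety through 0, 48 and 96 h. Shengsimai ends at 20.2 FPKM of Sus2 with 56.0 of AGPL1, and Zhoumai18 at 48 h reaches 178 FPKM of AGPL1 with 1.36 of Sus2.

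Of the enzymes around these steps, the deposited table names 6 genes, of which 5 were tested. They are wSs2a-1, a starch synthase that elongates glucan chains with ADP-glucose, the branching enzyme genes Sbe2 and Sbe1A, the cell wall invertase gene CWINV2SM and the acid invertase gene AInv. Invertases split sucrose into glucose and fructose and so stand beside sucrose synthase. The starch synthase gene wSs2a-2 stayed under the filter. These genes were matched by symbol, and each is a single gene rather than a full set of homoeologues. Other copies and other starch enzymes were not matched, so the list does not stand for the pathway. At 48 h, 0 of the 5 were higher and 2 lower in Baipimai than in Zhoumai18 (median log2 fold change -0.30, median of all tested genes 0.04), where 28.6% of all tested genes were higher and 25.0% lower. In Shengsimai 2 were higher and 3 lower (median -1.82, all tested genes -0.02), where 29.1% were higher and 33.3% lower. At 96 h, 0 were higher and 4 lower in Baipimai (median -1.26, all -0.05; 39.6% of all higher, 42.7% lower), and 1 was higher and 4 lower in Shengsimai (median -3.24, all -0.04; 39.5% of all higher, 42.2% lower).

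The invertase CWINV2SM had 14.7 FPKM in Zhoumai18, 9.31 in Baipimai and 0.0962 in Shengsimai at 48 h as means of 3 libraries, a log2 fold change of -7.00 between Shengsimai and Zhoumai18 (SE 0.22, adjusted p = 8.6e-21, edgeR). At 96 h it had 18.1, 6.90 and 0.477 FPKM (-5.13, SE 0.17, adjusted p = 3.4e-20, edgeR, for Shengsimai). In Shengsimai it was low at 0 h too, with 0.360 FPKM, and it rose from 48 to 96 h (2.18, SE 0.31, adjusted p = 4e-06, edgeR). The branching enzyme Sbe2 was at 25.5 FPKM in Zhoumai18, 23.5 in Baipimai and 29.2 in Shengsimai at 48 h, and at 34.4, 13.5 and 19.7 at 96 h. The alpha-amylase gene AMY4, the only starch-degrading enzyme matched, was at 6.12, 6.75 and 4.71 FPKM in Zhoumai18, Baipimai and Shengsimai at 48 h and at 8.86, 5.46 and 5.05 at 96 h.

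Over the 27 libraries, log2(FPKM + 1) of Sus2-2B correlated with that of Sus2-2D at a Pearson r of 0.85 and with that of Sus2-2A at 0.71. AGPL1-1B and AGPL1-1D were at 0.83, AGPL1-1A and AGPL1-1B at 0.73, and AGPL1-1A and AGPL1-1D at 0.47. Between families r ran from -0.62 for Sus2-2D with AGPL1-1A to 0.42 for Sus2-2B with AGPL1-1D. The genes most like the summed Sus2 were TraesCS7A01G376800 (r = 0.92), TraesCS3D01G201300 (r = 0.90) and TraesCS6D01G154200 (r = 0.90), among 22005 genes with at least 10 FPKM in their highest group. Each had its highest mean in Shengsimai at 96 h. Most like the summed AGPL1 were TraesCS6A01G085300 (r = 0.97), TraesCS7A01G426900 (r = 0.96) and TraesCS7B01G327200 (r = 0.96), each highest in Zhoumai18 at 48 h. These values are descriptions, since the points share the 9 groups and their libraries.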

How the data were processed

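RNA-seq of 27 spike libraries was analysed, grouped by the variety and time their labels give, with 3 replicates in each of 9 groups. In 1 table for all libraries, the authors deposited gene counts that had not been normalized. The same table holds deposited FPKM, in which the length of the gene and the size of the library are allowed for. The aligner, the counting tool and the genome build are not given in the sources used here. It lists 153699 genes, after 1 malformed line was dropped.

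Counts were TMM-scaled, and a single model with a mean for each of the 9 groups was fitted to all 27 libraries with the quasi-likelihood method of edgeR 4.0.16 under R 4.3.3. The 68658 genes with at least 1 FPKM in at least 3 libraries were tested, Benjamini-Hochberg adjustment was made separately in each of 22 comparisons, and the threshold was 0.05. Totals ran from 45590141 to 55765523 counts per library. The p-values measure the spread between spikes of a single treatment. Every pair of replicates differed by more than sampling noise, with a chi-square per degree of freedom of 2.93 to 14.2.

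Alternatives were DESeq2 1.42.0, library totals without TMM, upper-quartile scaling, no filter, limma 3.58.1 on log2(FPKM + 1) and on log2(FPKM + 0.1), the replicate number as a block, a model of only the groups compared, TPM or TMM-scaled CPM in place of FPKM, and leaving out each library. The test was run on simulated data before use. All 6 members were named, with the 3 genes most like each family over the libraries and the highest pathway genes of each enzyme class. Starch enzymes and tissue markers were taken by the symbols that the deposited table or RefSeq gives. The members and lists were chosen with earlier results of these data known. No protein or promoter sequences were used here.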

Additional observations from a re-analysis of the deposited data

Results flagged for a closer look

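The change over time differed between a resistant variety and Zhoumai18, by a test of the difference between the changes (edgeR's quasi-likelihood test, Benjamini-Hochberg adjustment), in 20 of the 24 cases. Of all tested genes 43.3% passed the same test for Baipimai and 49.7% for Shengsimai from 0 to 48 h, and 66.8% and 65.2% from 0 to 96 h. From 0 to 48 h all 3 Sus2 copies changed towards higher values in Baipimai than in Zhoumai18, by 2.78 for Sus2-2A, 1.16 for Sus2-2B and 1.18 for Sus2-2D on the log2 scale. The 3 AGPL1 copies changed towards lower values in Baipimai, by -1.62 for AGPL1-1A, -1.61 for AGPL1-1B and -0.92 for AGPL1-1D. Shengsimai differed from Zhoumai18 over the same step by 2.72 for Sus2-2A, 2.49 for Sus2-2B, 1.26 for Sus2-2D, -1.78 for AGPL1-1A and -0.87 for AGPL1-1B. Sus2-2D was kept in the test only by its level in Shengsimai at 48 and 96 h, so its values for Shengsimai are a description.

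From 0 to 96 h Shengsimai differed from Zhoumai18 by 1.85 for Sus2-2A, 2.99 for Sus2-2B, 3.05 for Sus2-2D, -1.43 for AGPL1-1A and -0.33 for AGPL1-1B. Baipimai differed from Zhoumai18 by -1.41 for Sus2-2A and -1.62 for Sus2-2B, whose signs over this span were opposite to those from 0 to 48 h, by 0.71 for Sus2-2D and by -0.49 for AGPL1-1B. Among the differences past the threshold, 0.71 (adjusted p = 0.049) and -0.33 (adjusted p = 0.033) were the nearest to it in edgeR's test. Of 12 fits that left out 1 library, 8 lost the call of 0.71 and 5 that of -0.33. AGPL1-1D from 0 to 48 h between Shengsimai and Zhoumai18 missed the threshold (0.33, adjusted p = 0.061, edgeR). All these differences share the Zhoumai18 libraries, and globulin and chlorophyll a-b binding protein genes set Zhoumai18 at 96 h apart from the other groups as well. Their part in these results was not tested.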

How the results depend on the processing

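Of 132 differences of single members, 109 were past the threshold, and 101 of these stayed past it in the same direction under every alternative. The counts of members past the threshold stayed within 1.5 times under every alternative. The 8 that were lost under at least 1 were Sus2-2D between Baipimai and Zhoumai18 at 96 h, in its change from 0 to 96 h between them and between Baipimai and Shengsimai at 48 h, Sus2-2A in Baipimai from 0 to 48 h, AGPL1-1A in Baipimai from 0 to 48 h and between Shengsimai and Zhoumai18 at 0 h, and AGPL1-1B in Baipimai from 48 to 96 h and in its change from 0 to 96 h between Shengsimai and Zhoumai18. Of the 23 not past the threshold, 9 passed under some alternative. Without TMM the median of all genes moved by -0.38 to 0.52 between comparisons, and the 109 kept their sign, also relative to that median. TPM in place of FPKM moved 51 of 54 group levels by more than their SD. TPM here is the same FPKM rescaled to a fixed sum per library. That sum is larger than the deposited sums of 699730 to 828040, so every level rises by construction. The cause of the changes in calls was not tested.

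Signs turned only in differences that were not past the threshold. AGPL1-1B between Baipimai and Zhoumai18 at 96 h (0.01) was at -0.09 with DESeq2, -0.13 and -0.14 with limma at pseudocounts of 1 and 0.1, -0.14 without TMM, -0.03 with upper-quartile scaling and -0.09 to 0.12 with 1 library left out. Sus2-2B between Shengsimai and Zhoumai18 at 0 h (0.00) was at -0.01, -0.06, -0.25, -0.38 and -0.05 under the same settings, at -0.05 in a fit of the compared groups alone and at -0.22 to 0.20 with 1 library left out. Sus2-2D between these at 0 h (0.17) was at -0.05 and -0.17 with limma and -0.21 without TMM. AGPL1-1A between Baipimai and Shengsimai at 0 h (-0.12) was at 0.12 with limma at either pseudocount and 0.13 without TMM, and at 48 h 0.00 to 0.08 with 1 library left out. AGPL1-1D in its change from 0 to 96 h between Shengsimai and Zhoumai18 (-0.24) was at 0.01 with limma at a pseudocount of 0.1 and 0.02 without TMM, and DESeq2 called it in the first direction (-0.33, adjusted p = 0.035). Sus2-2D in Zhoumai18 from 0 to 48 h (0.02) was at -0.01 without the filter, -0.02 in a fit of the compared groups alone and -0.07 to 0.17 with 1 library left out. With 1 library left out, the changes from 0 to 96 h between Baipimai and Zhoumai18 ran from -0.11 to 0.05 for AGPL1-1A and from -0.21 to 0.04 for AGPL1-1D.

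With the replicate block, Sus2-2D in its change from 0 to 96 h between Baipimai and Zhoumai18 lost its call (0.71, adjusted p = 0.057, edgeR), and no other call changed. The deviations of same-numbered libraries from their group means had correlations of -0.0545 to 0.162, with a median of 0.00477. For differently numbered libraries the median was -0.000492. Of the 27 libraries, 13 correlated best with a library of their own number, which 1 of the 3 replicates of each group carries. Whether same-numbered libraries were paired in the experiment cannot be told from these values. Sus2-2A, Sus2-2B and Sus2-2D rest on as few as 19, 17 and 20 counts per library, which limits small differences and the precision of folds from 0 h.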

Other observations

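Of the 5 tested starch and invertase genes around Sus2 and AGPL1, 5 were higher at 96 h than at 0 h in Baipimai by edgeR's adjusted p (median log2 fold change 1.57, all tested genes 0.11), where 39.4% of all tested genes were higher. In Shengsimai 4 were higher (median 1.28, all 0.08), where 39.5% of all were, and in Zhoumai18 5 (median 2.01, all 0.12), where 44.4% were. The branching enzyme gene Sbe1A was at a mean of 9.48 FPKM in Zhoumai18 at 96 h, 0.675 in Baipimai and 0.391 in Shengsimai. The acid invertase gene AInv was at 8.77, 1.50 and 0.864 FPKM in the same groups. The starch synthase gene wSs2a-1 was at 7.71 FPKM in Shengsimai at 96 h against 4.12 in Baipimai, and of these 5 genes it was the one higher in Shengsimai than in Zhoumai18 at 96 h (log2 fold change 1.04, SE 0.11, adjusted p = 1.3e-09, edgeR).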
